A study of Homo sapiens with 6 samples.

Results

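The 53 genes described here encode proteins of the centromere, the kinetochore and the spindle assembly checkpoint. They were chosen by symbol from the 12982 genes of the deposited table, 22 because the symbol begins with CENP (centromere protein) and 31 from a list of named kinetochore, checkpoint and chromosomal passenger genes. The rule used no measured value, but the genes were chosen with earlier results of these data known. SW480, a long-established human line from a colorectal adenocarcinoma with its genotype labelled WT, was treated for 24 h with the solvent DMSO or with MPM-1, which the labels also call WT4. MPM-1 is a fluorescent probe made to accumulate in mitochondria, and its dose in this experiment is not given in the sources used here. Messenger RNA was sequenced in 3 libraries per treatment. The 6 libraries held between 31733667 and 40269820 counts. All come from this line, and the labels do not say whether the 3 libraries of a treatment came from separate cultures, so p-values measure the spread between libraries, which may be technical.

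The centromere is marked by nucleosomes that carry CENP-A in place of histone H3, and it is the site on which the kinetochore is built in each mitosis. The inner kinetochore, or constitutive centromere-associated network (CCAN), binds that chromatin, and the outer KNL1, MIS12 and NDC80 complexes bind it to microtubules. Kinetochores without microtubules recruit BUB1, BUBR1, MAD1 and MAD2, which hold back the anaphase-promoting complex until every chromosome is attached, while the chromosomal passenger complex with Aurora B corrects wrong attachments. Many of these genes are transcribed mostly in G2 and mitosis, and the proteins are much studied in colorectal cancer because chromosome gain and loss is common there.

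MPM-1-treated cells held less RNA of most of these genes. A gene was called when edgeR's quasi-likelihood test gave an adjusted p (Benjamini-Hochberg over all 12982 genes) under 0.01 and the log2 fold change of MPM-1 over DMSO was at least 1 in size. Of the 53 genes, 27 fell, none rose and 26 were not called. DESeq2 also called none higher, and at an unadjusted p under 0.05 edgeR had 48 lower and 1 higher, beside 31.5 and 29.8 percent of all genes. Over all genes 1136 fell, 8.75 percent, and 725 rose, 5.58 percent. The median log2 fold change of the 53 genes was -1.10, beside -0.026 over all genes, and 51 of the 53 values (96.2 percent) were below 0, beside 51.6 percent of all genes. Values ranged from -2.40 for CENPF to 0.73 for MAD1L1. With library size alone in place of TMM factors, 31 of the 53 genes fell, and over all genes 1470 fell and 537 rose around a median of -0.18. In bulk libraries, fewer cells in or near mitosis and less RNA per cell cannot be told apart.

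Of the 26 genes not called, 15 were lower at an adjusted p under 0.01 with a fold under the threshold, 1 was higher at that level (MAD1L1) and 10 had an adjusted p of 0.01 or more in the same edgeR test. At an adjusted p under 0.01 and any fold, 42 of the 53 genes were therefore lower, beside 20.7 percent of all genes. In 47 of the 53, all 3 MPM-1 libraries lay below all 3 DMSO libraries in CPM (read counts scaled to a common library size with TMM factors), beside 33.3 percent of all genes. MAD1L1 alone lay above in all 3 MPM-1 libraries, beside 31.0 percent of all genes. The groups overlapped in ZW10, CENPT, CENPP, MIS12 and PMF1. Summed over the 53 genes, the DMSO libraries held 2255, 2320 and 2308 CPM in the order of their replicate numbers, and the MPM-1 libraries held 1203, 1266 and 1211 CPM. The 3 libraries of each treatment thus lay close together, and the treatments were apart. In GENCODE 29, 3 of the 53 genes (CENPA, PMF1 and BUB1B) overlap another gene of the table on the same strand and 15 do so on the other strand, so their values are less certain.

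**Figure D1:**
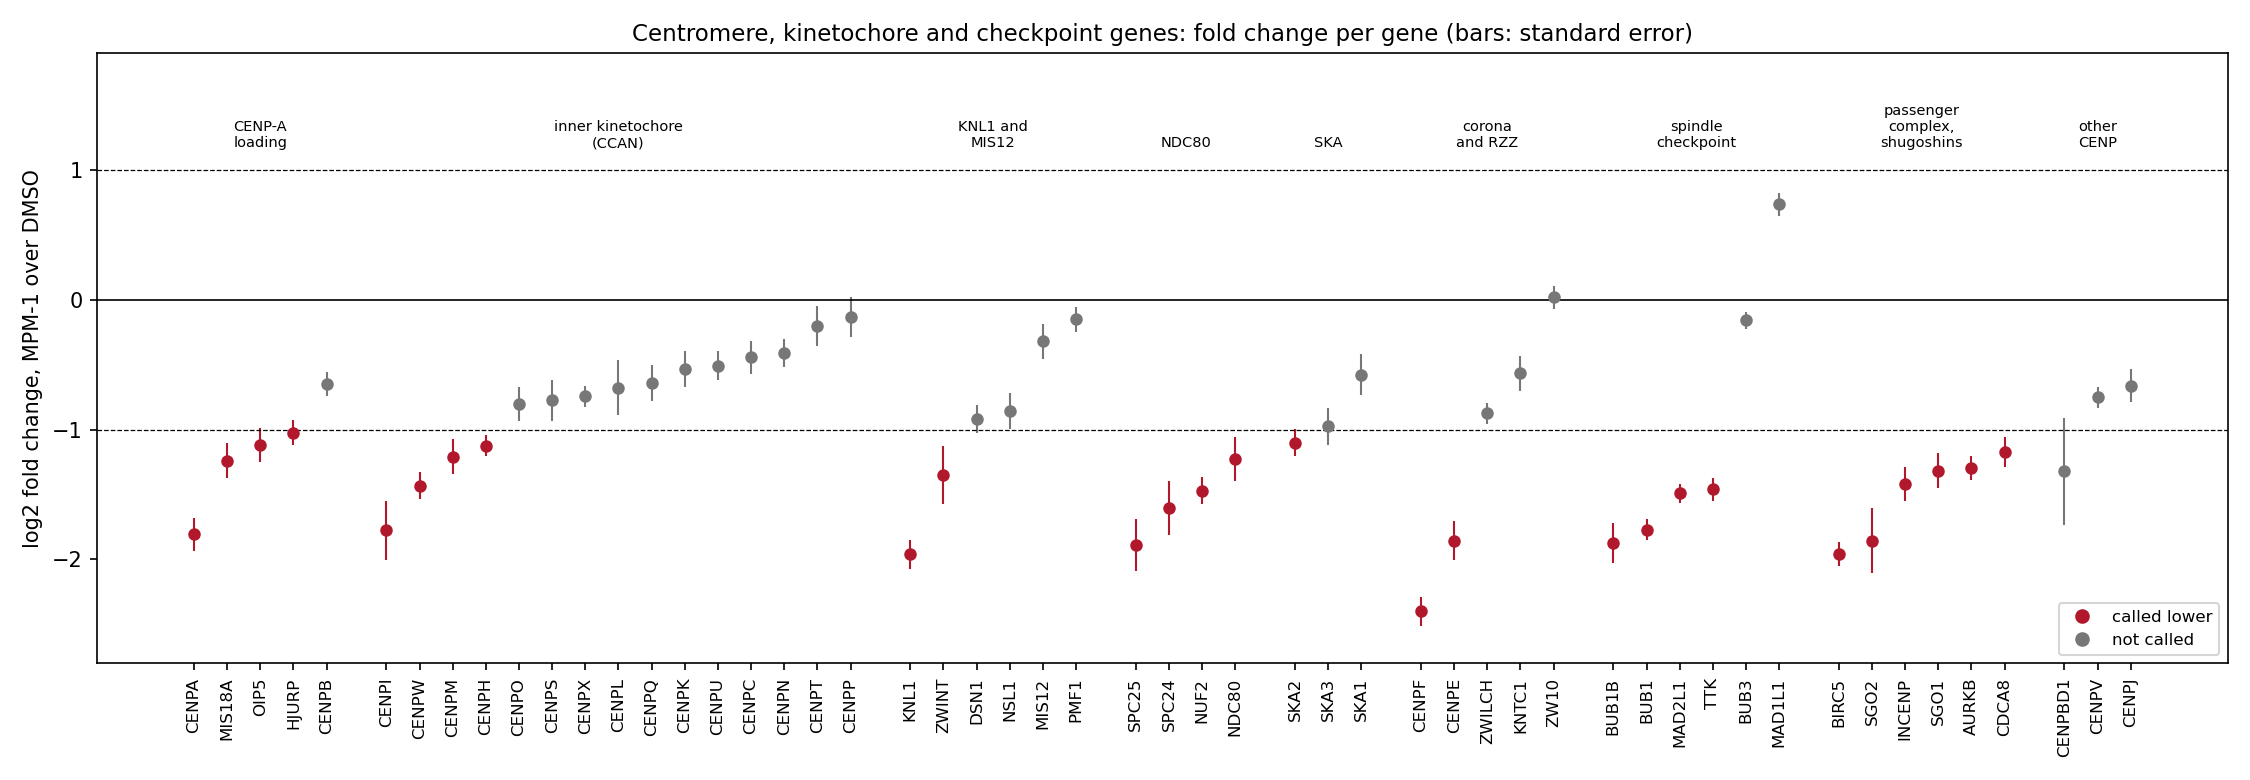
Log2 fold change (MPM-1 over DMSO, edgeR) of each of the 53 genes, ordered by role and, within a role, by value, with its standard error as a bar. The solid line marks 0 and the dashed lines mark the fold threshold on either side. All 4 NDC80 complex genes and all 6 passenger complex and shugoshin genes sit below the lower dashed line, while MAD1L1 stands alone at 0.73.

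Promoters were compared because so many of the genes moved together. Many genes of G2 and mitosis carry a cell cycle genes homology region (CHR), here searched as TTTGAA, and CCAAT boxes, which bind the factor NF-Y. E2F sites are better known from genes of the G1/S transition and were searched as TTTCCCGC, TTTCGCGC, TTTGCCGC or TTTGGCGC. RefSeq windows (GRCh38.p14) ran from 250 bases before to 50 after a gene start, and 42 of the 53 genes matched 48 of them. BIRC5, BUB3, CENPBD1, CENPH, CENPJ, CENPL, CENPM, KNL1, KNTC1, MIS18A and TTK were the 11 without a window. The stretches shown are those of CENPF, SPC24, CENPW and ZWINT. These 4 had the lowest fold changes among genes with a motif in the 250 bases before the start and at most 30 bases there in an exon of GENCODE 29. They are given 5' to 3' on the gene's strand with motifs in capitals, where ATTGG is CCAAT and TTCAAA is TTTGAA read on the other strand. The CENPF stretch is chr1:214602945-214603194 (plus strand), SPC24 is chr19:11155783-11156032 (minus), CENPW is chr6:126339865-126340114 (plus) and ZWINT is chr10:56361260-56361509 (minus).
CENPF: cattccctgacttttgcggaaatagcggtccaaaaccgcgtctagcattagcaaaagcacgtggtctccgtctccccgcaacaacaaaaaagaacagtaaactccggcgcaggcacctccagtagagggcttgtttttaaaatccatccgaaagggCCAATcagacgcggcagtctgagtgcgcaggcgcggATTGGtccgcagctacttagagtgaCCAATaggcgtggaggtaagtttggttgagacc
SPC24: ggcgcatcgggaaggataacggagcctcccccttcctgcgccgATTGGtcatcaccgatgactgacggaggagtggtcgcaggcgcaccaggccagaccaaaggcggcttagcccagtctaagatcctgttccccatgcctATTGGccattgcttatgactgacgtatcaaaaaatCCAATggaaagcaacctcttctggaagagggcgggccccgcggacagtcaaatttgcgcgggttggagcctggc
CENPW: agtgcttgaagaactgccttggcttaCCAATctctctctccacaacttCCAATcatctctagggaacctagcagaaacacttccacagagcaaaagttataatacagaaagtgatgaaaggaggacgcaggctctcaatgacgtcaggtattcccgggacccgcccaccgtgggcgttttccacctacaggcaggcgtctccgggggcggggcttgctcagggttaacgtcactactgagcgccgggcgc
ZWINT: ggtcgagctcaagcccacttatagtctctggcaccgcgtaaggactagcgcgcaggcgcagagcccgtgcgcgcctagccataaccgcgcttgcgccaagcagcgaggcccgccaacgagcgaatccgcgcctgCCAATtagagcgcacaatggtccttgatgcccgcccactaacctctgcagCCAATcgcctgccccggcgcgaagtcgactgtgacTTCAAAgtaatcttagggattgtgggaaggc

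All 4 stretches held CCAAT boxes, counting 3 before the start in CENPF, 3 in SPC24, 2 in CENPW and 2 in ZWINT. ZWINT had a CHR 31 bases before its start, CENPF had one 41 bases after its start, outside the stretch shown, and the SPC24 and CENPW windows had none. TTTGAA was present in 18 of the 48 windows (37.5 percent), against 15.2 percent of all 35116 RefSeq windows and 10.1 percent of the 13976 windows of genes in the table. CCAAT was present in 31 (64.6 percent), against 34.6 percent of all windows and 34.5 percent of those of genes in the table. Both were found together in 12 windows (25.0 percent), against 5.9 percent of all windows, 4.02 percent of genes in the table and 8.88 percent of windows of all genes that fell. An E2F sequence was found in 6 windows (12.5 percent), against 3.31 percent of all windows and 4.89 percent of those of genes in the table. Among the 24 windows of genes that fell, 9 (37.5 percent) held both TTTGAA and CCAAT, and among the 24 windows of genes not called 3 (12.5 percent) did. E2F sequences were in 2 windows (8.33 percent) of genes that fell and 4 (16.7 percent) of genes not called. A gene with more than 1 window was counted for each. ZWINT thus enters the 9 windows with both motifs, and MIS12 the 4 with an E2F sequence, more than once. MAD1L1, the highest of the 53, had neither of them nor an E2F sequence in its window. However, all 250 bases before its start lay in an annotated exon, so what this absence says about its promoter is unclear. Exons of any gene on either strand were counted, so exonic bases can also be those of a neighbouring gene. Among genes that fell, windows of NUF2 and SGO1 were also exonic throughout. Among genes not called, so were windows of ZWILCH, CENPO, CENPS and CENPN, and some of MIS12 and CENPP. The motif shares of the groups were not adjusted for exonic bases. All motif figures here are counts of letters, without a test, and a match is not a bound site.

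Of the 5 genes of centromeric chromatin and CENP-A loading, 4 fell, with a median log2 fold change of -1.12. CENPA encodes the centromeric histone itself and lies on chromosome 2 from 26764289 to 26801067 (GRCh38, GENCODE 29). Its levels were 26.0, 27.9 and 25.3 CPM in DMSO replicates 1, 2 and 3 and 7.35, 8.42 and 6.82 CPM in MPM-1 replicates 1, 2 and 3. Every treated library lay far below every control, and the treated mean was 28.6 percent of the DMSO mean. The log2 fold change of CENPA was -1.81 ± 0.13 (SE, n = 3 per treatment, edgeR adjusted p = 4.87e-06). CENPA overlaps SLC35F6 on the same strand, which had a log2 fold change of 0.83, so reads could be split between them.

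The genes of the proteins that place new CENP-A fell too. HJURP, the CENP-A chaperone, had a log2 fold change of -1.03, MIS18A of the licensing complex -1.24, and OIP5, its partner subunit MIS18 beta, -1.12. HJURP was the closest to the threshold, and without MPM-1 replicate 1 its value was -0.92. CENPB, which binds a DNA box in centromeric satellite repeats and is not needed for CENP-A loading at established centromeres, was the highest of the group. CENPB was at 69.4, 80.0 and 72.8 CPM in DMSO and 43.0, 50.3 and 48.4 CPM after MPM-1. The CENPB groups did not overlap, but the log2 fold change of -0.65 ± 0.09 (edgeR adjusted p = 0.000255) was under the fold threshold.

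In the inner kinetochore, 4 of 15 CCAN genes fell and 11 were not called, with a median log2 fold change of -0.68. All 15 values were below 0. CENPI, which helps to bring new CENP-A to centromeres, had the lowest. It was at 5.73, 7.73 and 7.38 CPM in DMSO and 2.13, 1.66 and 2.29 CPM after MPM-1. Its log2 fold change was -1.77 ± 0.23 (edgeR adjusted p = 0.000154). CENPW, a histone-fold partner of CENP-T, was at -1.43, CENPM at -1.21 and CENPH at -1.12, and these 3 also fell.

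The other CCAN genes graded from -0.81 to -0.14 on the log2 scale. CENPO was at -0.81, CENPS at -0.77, CENPX at -0.74, CENPQ at -0.64, CENPK at -0.53, CENPU at -0.51 and CENPN at -0.41, all with an edgeR adjusted p under the threshold but a smaller fold. CENPL was at -0.68 (edgeR adjusted p = 0.0218) and CENPC, which links CENP-A nucleosomes to the MIS12 complex, at -0.45 (edgeR adjusted p = 0.0143). CENPT, the second link from the CCAN to the outer kinetochore, was at 19.2, 17.7 and 18.6 CPM in DMSO and 19.9, 14.3 and 14.0 CPM after MPM-1. MPM-1 replicate 1 lay above every DMSO library for CENPT, and the log2 fold change was -0.20 (edgeR adjusted p = 0.284). CENPP, of the CENP-O complex, had the highest value of the group, with 14.7, 12.1 and 13.0 CPM in DMSO and 10.3, 12.0 and 13.8 CPM after MPM-1. Its groups overlapped, at a log2 fold change of -0.14 ± 0.15 (edgeR adjusted p = 0.478). CENPX overlaps LRRC45 on the other strand, a gene that itself fell (-1.21), and it is not stated whether counting used strand. ITGB3BP, which encodes CENP-R, was listed outside the 53 by its symbol and stood at -0.34.

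In the outer kinetochore, KNL1 is the large scaffold that recruits BUB1 and BUB3, and ZWINT is its binding partner. Both fell, while the 4 MIS12 complex subunits were not called. KNL1 lies on chromosome 15 from 40594020 to 40664342. It was at 30.6, 33.5 and 31.6 CPM in DMSO and 8.30, 8.71 and 7.53 CPM after MPM-1. Its log2 fold change was -1.96 ± 0.11 (edgeR adjusted p = 1.51e-06), tight in both treatments. ZWINT was at 12.3, 21.1 and 23.8 CPM in DMSO and 7.62, 7.58 and 7.24 CPM after MPM-1. DMSO replicate 1 was the low library of its group, still above the treated ones, and the log2 fold change of -1.35 lay between -1.59 and -1.16 when each library was left out in turn.

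The MIS12 complex joins the CCAN to KNL1 and NDC80. Of its subunits DSN1 was at a log2 fold change of -0.92 (edgeR adjusted p = 9.13e-05) and NSL1 at -0.86 (edgeR adjusted p = 0.000667). Both were lower with a fold under the threshold. The MIS12 subunit itself was at -0.32 (edgeR adjusted p = 0.0685). PMF1, the fourth subunit, had the highest value, with 61.3, 56.8 and 54.5 CPM in DMSO and 54.0, 45.8 and 55.6 CPM after MPM-1. The PMF1 groups overlapped, at -0.15 ± 0.09 (edgeR adjusted p = 0.197). DSN1 per PMF1 in FPKM, a level per transcript length, was 0.284 ± 0.0141 (SD, n = 3) in DMSO and 0.164 ± 0.0315 after MPM-1. This pair was chosen after the values were seen, and its two-sided exact permutation p of 0.1 is the smallest that 3 against 3 libraries allow. PMF1 shares its strand with the readthrough gene PMF1-BGLAP, and MIS12 overlaps DERL2 on the other strand, which had a log2 fold change of 0.99.

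All 4 subunits of the NDC80 complex, the rod that is the main microtubule-binding part of the kinetochore, fell, with a median log2 fold change of -1.54. SPC25, at the end that faces the MIS12 complex, was the lowest. It was at 11.6, 12.5 and 14.3 CPM in DMSO and 2.86, 4.32 and 3.19 CPM after MPM-1. The log2 fold change of SPC25 was -1.89 ± 0.20 (edgeR adjusted p = 4.98e-05). Its partner SPC24 was at -1.60 and NUF2 at -1.47. NDC80, also known as HEC1, lies on chromosome 18 from 2571511 to 2616635. NDC80 was at 20.6, 23.4 and 23.6 CPM in DMSO and 8.24, 12.2 and 8.52 CPM after MPM-1. MPM-1 replicate 2 was the high library of its group for NDC80, and the log2 fold change was -1.23 ± 0.17 (edgeR adjusted p = 0.000224). SPC24 was at 11.2 CPM in DMSO replicate 1 against 18.7 and 16.7 CPM in the others, and its log2 fold change lay between -1.79 and -1.45 when each library was left out.

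Proteins of the SKA complex strengthen the hold of NDC80 on depolymerizing microtubules. SKA2 fell, at 32.7, 35.3 and 32.2 CPM in DMSO and 13.9, 16.1 and 16.7 CPM after MPM-1 (log2 fold change -1.10 ± 0.11, edgeR adjusted p = 2.87e-05). SKA3 was at -0.98 (edgeR adjusted p = 0.000348), just inside the fold threshold. SKA1 was at 10.1, 10.9 and 10.3 CPM in DMSO and 8.01, 6.67 and 6.31 CPM after MPM-1. The SKA1 groups did not overlap, and its log2 fold change was -0.58 ± 0.16 (edgeR adjusted p = 0.0118).

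CENPF and CENPE, large proteins of the corona that forms on unattached kinetochores, fell, while the 3 subunits of the RZZ complex (ROD, ZW10 and Zwilch) were not called. CENPF lies on chromosome 1 from 214603195 to 214664588 and had the lowest fold change of all 53 genes. It was at 78.3, 97.4 and 92.3 CPM in DMSO and 17.3, 18.4 and 15.2 CPM after MPM-1. The treated mean was 19.0 percent of the DMSO mean, at a log2 fold change of -2.40 ± 0.11 (edgeR adjusted p = 5.66e-07). CENPE, a kinesin that carries chromosomes to the spindle equator, was at -1.86. ZWILCH was at -0.87 (edgeR adjusted p = 2.46e-05), lower but with a fold under the threshold. ZWILCH overlaps RPL4 on the other strand, an abundant ribosomal protein gene (2721 CPM in DMSO) with a log2 fold change of 0.60. KNTC1, which encodes ROD, was at -0.57 (edgeR adjusted p = 0.00517). ZW10 also acts in membrane traffic outside mitosis. It was at 27.8, 30.5 and 28.0 CPM in DMSO and 30.4, 27.9 and 29.2 CPM after MPM-1. Its groups overlapped at a log2 fold change of 0.02 ± 0.09 (edgeR adjusted p = 0.877), and the sign turned with the scaling, to -0.13 with library size alone and -0.15 on the FPKM scale.

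**Figure D2:**
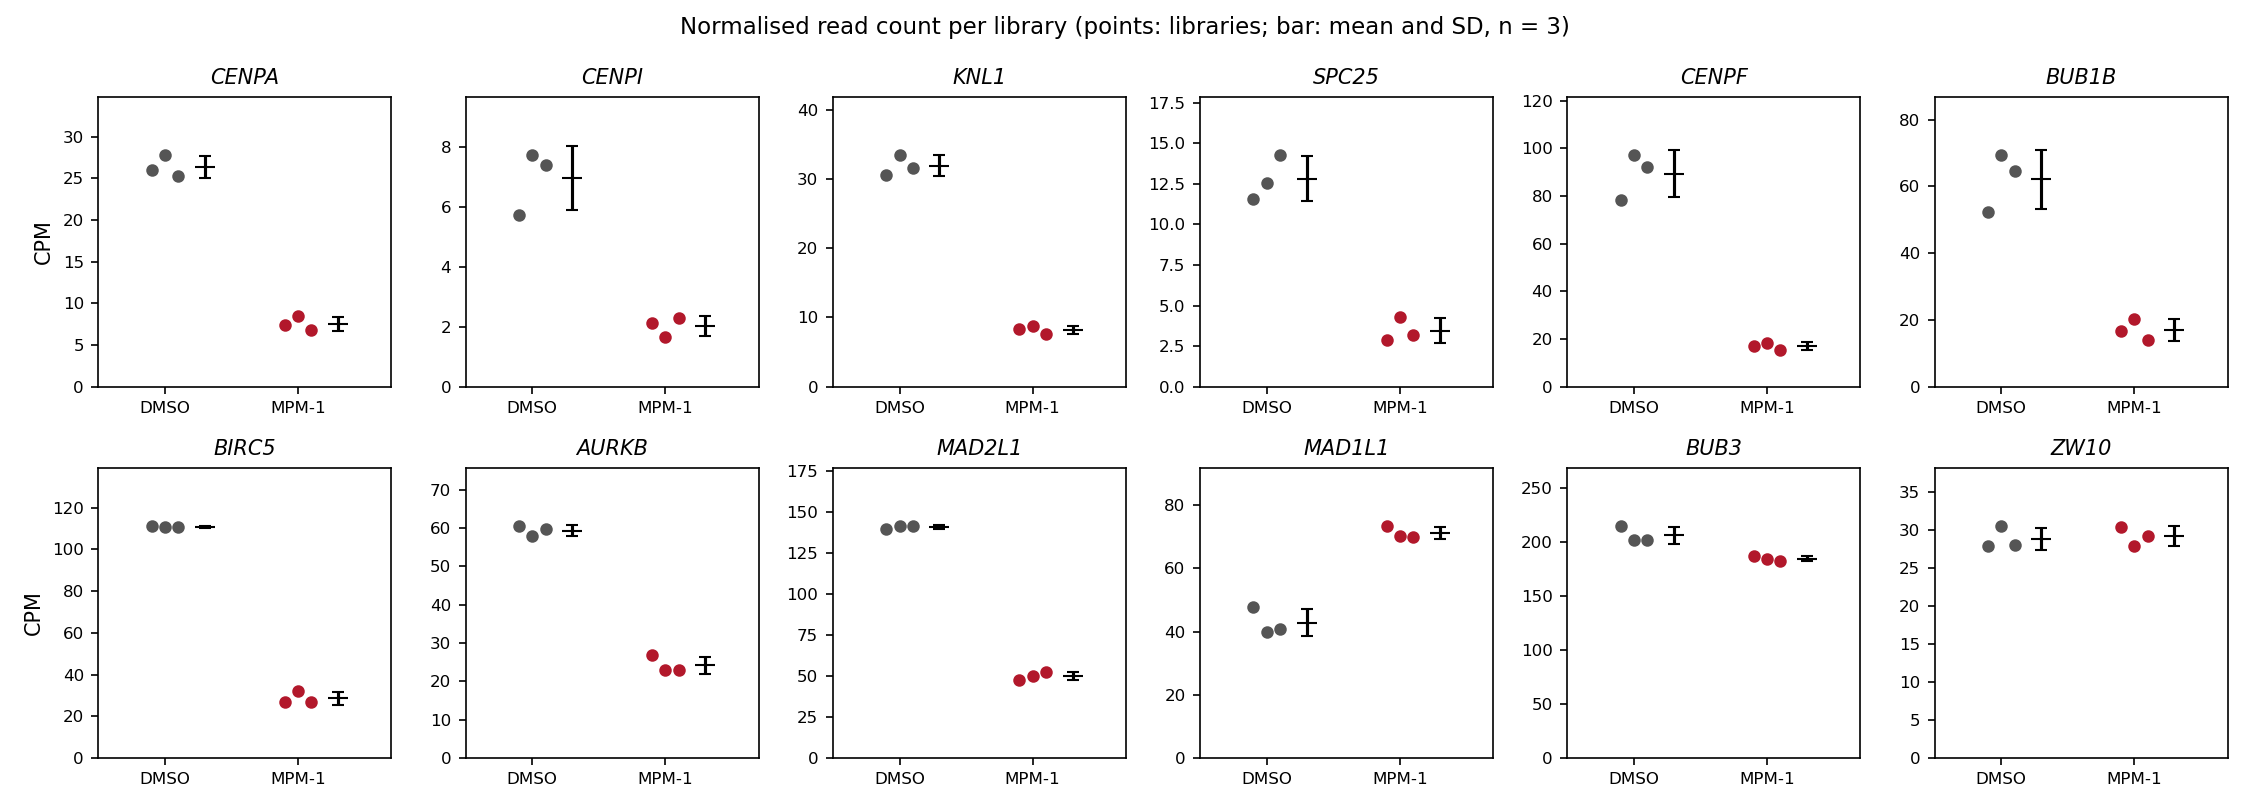
Normalised read count (CPM, linear axes from 0) of 12 genes in each library, with DMSO in grey and MPM-1 in red, replicates 1 to 3 from left to right, and the mean with its SD beside them. The first 9 genes are separated between treatments, MAD1L1 is higher in all 3 MPM-1 libraries, BUB3 differs little and the ZW10 libraries overlap.

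Of the 6 spindle checkpoint genes 4 fell, namely the kinase genes BUB1 and TTK with BUB1B and MAD2L1, while BUB3 and MAD1L1, the genes of binding partners, were not called. BUB1B, the gene of BUBR1, which binds and inhibits the anaphase-promoting complex, lies on chromosome 15 from 40161023 to 40221136. BUB1B was at 52.2, 69.5 and 64.6 CPM in DMSO and 16.7, 20.4 and 13.9 CPM after MPM-1, a log2 fold change of -1.87 ± 0.15 (edgeR adjusted p = 1.10e-05). It shares its strand with BUB1B-PAK6, a readthrough gene with a mean of 1.18 CPM in DMSO. The kinase genes were close to it, BUB1 at a log2 fold change of -1.77 and TTK, which encodes MPS1 and starts the checkpoint signal, at -1.46.

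MAD2L1 encodes MAD2, the part of the inhibitory complex that captures CDC20, and lies on chromosome 4 from 120055608 to 120067074. MAD2L1 was at 139.6, 141.7 and 141.8 CPM in DMSO and 47.7, 50.3 and 52.4 CPM after MPM-1. Replicates were tight, and the log2 fold change was -1.49 ± 0.07 (edgeR adjusted p = 6.33e-07). MAD1L1 encodes MAD1, the kinetochore receptor of MAD2, and lies on chromosome 7 from 1815793 to 2233243. MAD1L1 was at 47.8, 40.0 and 40.7 CPM in DMSO and 73.5, 70.2 and 70.0 CPM after MPM-1. It was the only one of the 53 genes higher in every treated library, at a log2 fold change of 0.73 ± 0.09 (edgeR adjusted p = 0.000106), which is under the fold threshold. On the FPKM scale MAD2L1 per MAD1L1 was 1.50 ± 0.194 (SD, n = 3) in DMSO and 0.280 ± 0.0251 after MPM-1. This pair too was chosen after the values were seen, with a two-sided exact permutation p of 0.1, again the smallest possible.

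BUB3, which carries BUB1 and BUBR1 to KNL1, was at 214.9, 201.7 and 201.5 CPM in DMSO and 186.9, 184.1 and 182.1 CPM after MPM-1. Groups did not overlap, but the log2 fold change was only -0.16 ± 0.07 (edgeR adjusted p = 0.0717). In FPKM the same gene was at a log2 fold change of -0.79 ± 0.08 (limma on log2 of FPKM plus 0.1 without a filter, adjusted p = 0.000134), so the size of its difference depends on which deposited unit is used. On either scale BUB3 stayed inside the fold threshold.

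All 6 genes of the chromosomal passenger complex and the shugoshins fell, with a median log2 fold change of -1.37. BIRC5, which encodes survivin, the subunit that takes the complex to the centromere, lies on chromosome 17 from 78214186 to 78225636. BIRC5 was at 111.4, 110.6 and 110.6 CPM in DMSO and 26.7, 32.1 and 26.8 CPM after MPM-1, a log2 fold change of -1.96 ± 0.09 (edgeR adjusted p = 5.66e-07). AURKB, the kinase subunit, lies on chromosome 17 from 8204733 to 8210600. It was at 60.6, 57.8 and 59.6 CPM in DMSO and 26.8, 22.8 and 23.0 CPM after MPM-1, a log2 fold change of -1.30 ± 0.09 (edgeR adjusted p = 4.54e-06). In both genes every treated library was far below every control library.

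CDCA8, the gene of the borealin subunit, had the highest value of the group, with 32.0, 36.9 and 28.6 CPM in DMSO and 14.3, 14.6 and 14.4 CPM after MPM-1 (log2 fold change -1.17 ± 0.12, edgeR adjusted p = 3.10e-05). INCENP, the scaffold of the complex, was at -1.42. The shugoshins protect centromeric cohesion until anaphase, and SGO1 was at -1.32 and SGO2 at -1.86. SGO2 was uneven among treated libraries, at 3.74, 8.13 and 4.94 CPM, and without each library in turn its log2 fold change lay between -2.20 and -1.62.

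CENPV, CENPJ and CENPBD1 carry a CENP symbol but are not part of the CCAN, and edgeR called none of them, while all 3 had an unadjusted p under 0.05 and DESeq2 called CENPBD1 lower. CENPJ, a centriole protein, was at 31.7, 27.7 and 26.1 CPM in DMSO and 15.4, 20.0 and 18.7 CPM after MPM-1 (log2 fold change -0.66 ± 0.13, edgeR adjusted p = 0.00176). CENPV was at -0.75 (edgeR adjusted p = 5.71e-05). CENPBD1, named after a CENP-B-like DNA-binding domain, had few reads. It was at 2.06, 2.64 and 2.84 CPM in DMSO and 0.492, 1.63 and 0.893 CPM after MPM-1. The CENPBD1 libraries did not overlap, but the spread was wide, and its log2 fold change of -1.32 ± 0.41 missed the threshold (edgeR adjusted p = 0.0199).

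**Figure D3:**
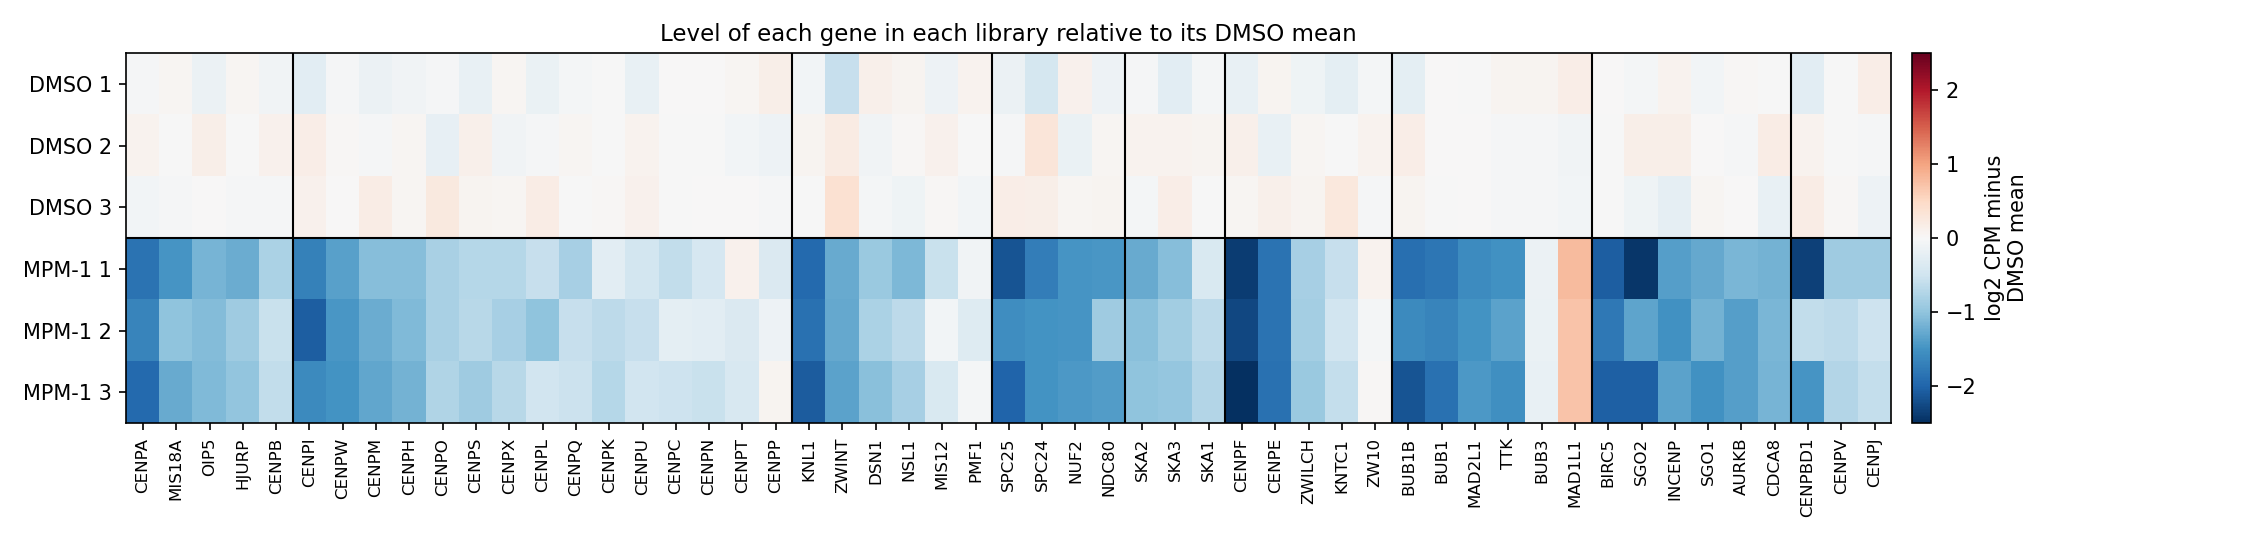
Colour shows log2 CPM of each gene in each of the 6 libraries minus the mean of that gene's DMSO libraries, in the same gene order as the plot of fold changes. Vertical lines part the roles, the horizontal line parts the treatments, and values past the ends of the scale take its end colour. The 3 treated rows are alike in most genes, SGO2 and CENPBD1 vary among them, and DMSO replicate 1 is pale blue for ZWINT and SPC24.

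Levels between genes were compared in FPKM only, a unit scaled by the authors for length and library size. In DMSO the highest were CENPV (122 FPKM), CENPX (80.8), BUB3 (74.3), PMF1 (55.6) and AURKB (53.3), and the lowest were CENPBD1 (0.836), CENPP (1.60) and CENPE (2.05). Subunits of the same complex stood at unequal RNA levels already in the controls. NUF2 was at 18.8 FPKM, NDC80 at 11.3, SPC25 at 9.66 and SPC24 at 7.50. Among checkpoint genes BUB3 (74.3 FPKM) exceeded BUB1 (32.9 FPKM), MAD2L1 (29.0 FPKM), TTK (22.0 FPKM), MAD1L1 (19.7 FPKM) and BUB1B (17.1 FPKM). The order of the last 3 is within or near their SDs, which were 0.411, 3.30 and 2.74 FPKM. After MPM-1 the order was BUB3 (43.1 FPKM), MAD1L1 (32.7), MAD2L1 (9.14), BUB1 (8.68), TTK (7.01) and BUB1B (4.19), and MAD2L1 and BUB1 lay within their SDs of each other (0.777 and 0.879 FPKM). MAD1L1 thus stood in the fifth place before and in the second after.

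**Figure D4:**
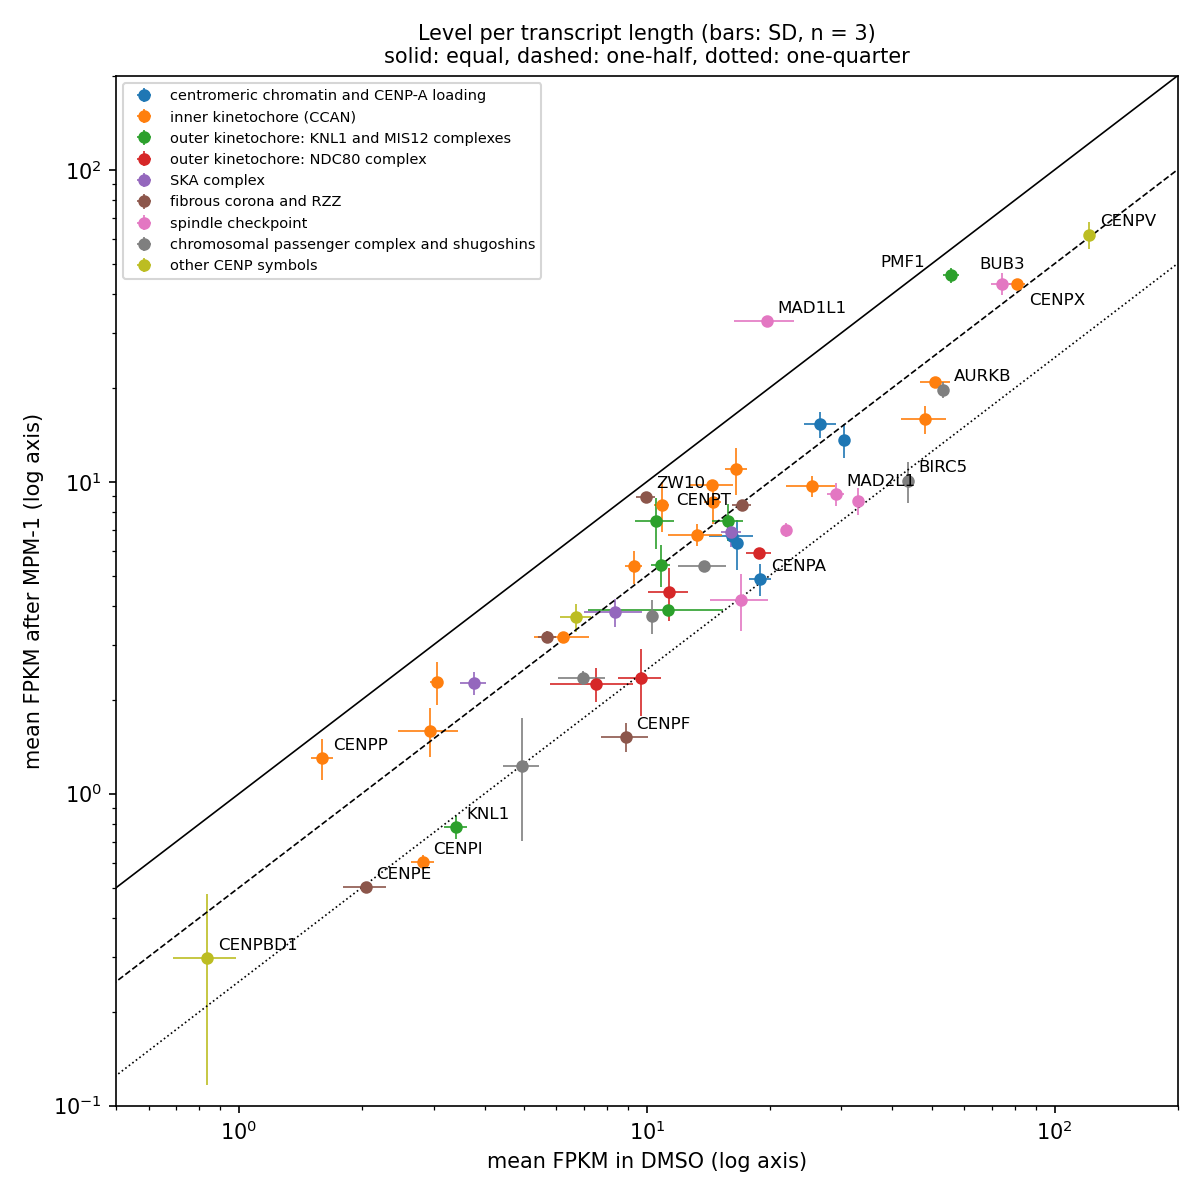
Mean FPKM after MPM-1 against mean FPKM in DMSO for the 53 genes on log axes, coloured by role, with SDs of the 3 libraries as bars. The solid line marks equal levels and the broken lines mark lower ones. MAD1L1 is the only gene above the solid line, ZW10, PMF1 and CENPP lie closest under it, and CENPF lies lowest relative to its DMSO level.

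The 4 lists of genes that act with these proteins held none of the 53. In the list of the anaphase-promoting complex and genes that act with it, 8 of 23 genes fell and 1 rose. These counts stand beside the 8.75 and 5.58 percent of all genes. The median log2 fold change of the list was -0.28. The lowest were CDC20, the activator that MAD2 captures, at -1.74, and FBXO5, the inhibitor EMI1, at -1.68. CDC16, a core subunit, rose at 1.12 and was the only one that did. The smallest fall was that of UBE2S, an enzyme that extends ubiquitin chains for the complex, at -1.18. The 8 that fell include securin (PTTG1, -1.36) and separase (ESPL1, -1.50), which are not subunits of the complex. Among genes whose symbol begins with ANAPC, only ANAPC15 (-1.20) fell. Of the genes not called, ANAPC11 (-0.55) and ANAPC5 (-0.31) were lower and ANAPC16 (0.78) and ANAPC13 (0.55) higher at an edgeR adjusted p under 0.01. Among cohesin and its regulators 2 of 14 fell, beside 8.75 percent of all genes, namely the acetyltransferase ESCO2 at -1.38 and sororin (CDCA5) at -1.09. None rose by edgeR or DESeq2. At an unadjusted p under 0.05 in edgeR, 7 were lower and 2 higher, beside 31.5 and 29.8 percent of all genes. At an edgeR adjusted p under 0.01 and any fold, 5 were lower, beside 20.7 percent of all genes, and none higher. The 5 include PDS5B (-0.88), SMC1A (-0.66) and RAD21 (-0.59), which were not called. Of 19 other kinetochore-associated genes 6 fell, beside 8.75 percent of all genes, and none rose by either tool. At an unadjusted p under 0.05 in edgeR, 8 were lower and 4 higher, beside 31.5 and 29.8 percent of all genes. Of the genes not called, KNSTRN (-0.94) and CKAP5 (-0.39) were lower at an edgeR adjusted p under 0.01. CLIP1 (0.78), NDEL1 (0.79) and BOD1 (0.36) were higher at that level. HASPIN, the kinase whose histone mark recruits the passenger complex, was at -1.89, and SPDL1, which brings dynein to the corona, at -1.62. The smallest falls of that list were SPAG5 (astrin) at -1.33 and KIF18A, a kinesin that damps chromosome movement, at -1.25. Of 12 subunits of the phosphatases PP1 and PP2A that act at kinetochores none was called by edgeR or DESeq2, and their median was 0.16. At an unadjusted p under 0.05, 3 of these were lower and 5 higher, beside the 31.5 and 29.8 percent of all genes.

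Cell type markers were read beside these results. Of 8 epithelial and colorectal markers 7 were in the table, with a sum of 8247 to 9633 CPM in DMSO and 12173 to 13706 CPM after MPM-1, and CEACAM5 was not analysed here. They did not move one way. CDX2, an intestinal transcription factor, fell at a log2 fold change of -2.20 and VIL1 was at -0.88, while KRT8, KRT18, KRT19 and CDH1 were between 0.42 and 0.89 and EPCAM was at -0.00084. Of 5 fibroblast markers only COL1A1 was in the table, at 2.67 to 3.34 CPM in DMSO and 0.197 to 1.20 CPM after MPM-1. Of 5 immune markers only CD79A and CD14 were, with a sum of 10.5 to 11.6 CPM in DMSO and 6.04 to 7.95 CPM after MPM-1. CD14 fell (-1.34) and CD79A rose (1.01). None of 3 endothelial markers was in the table. The part of these shifts in the results above was not tested.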

How the data were processed

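RNA of SW480 cells was sequenced after 24 h with DMSO or MPM-1. Treatments and replicates were taken from the sample titles. The authors deposited, per the file headers, a raw count of each gene in each library and its FPKM, together with a log2 fold change and FDR of their own comparison, which were not used. The submitters' processing notes name HISAT2, DESeq2 and the mouse build mm10, although the gene identifiers are human, and the counting, its use of strand and the annotation are not given in the sources used here. Coordinates were looked up by identifier in GENCODE 29 (GRCh38), and promoters come from RefSeq (GRCh38.p14).

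Counts of all 12982 genes entered edgeR 4.0.16 in R 4.3.3 (TMM scaling, quasi-likelihood test, no covariates, common dispersion 0.0231). The lowest gene total was 115 counts, and no gene was removed. Calls needed an adjusted p below 0.01 by the Benjamini-Hochberg method, and a fold change of 1 or more on the log2 scale in either direction. The SE is the size of the log2 fold change divided by the square root of F. The test was first tried on simulated data. DESeq2 1.42.0, limma 3.58.1 on log2 FPKM plus 0.1 (genes with a mean FPKM of at least 1), other scalings, filters and thresholds, a replicate block and leaving out each library were alternatives. Libraries held 31733667 to 40269820 counts, and the spread between 3 libraries sets the precision.

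The genes and lists were chosen with earlier results of these data known, so lists were described and not tested. Per-library values were given for the lowest and highest fold change in each role, any gene called higher, and CENPA, AURKB, BUB1B, MAD2L1 and NDC80. SGO2, ZWINT, SPC24, CENPT and BUB3 were added after their values were seen. Of partner lists, the 2 lowest and 2 highest called genes were to be named, and promoters of the 4 lowest genes with a motif and of the highest gene printed. The limit on exonic bases in printed promoters was set after the windows were seen, and it left out SPC25, BUB1B and MAD1L1, among others. Some genes that overlap members are not reported here.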

Additional observations from a re-analysis of the deposited data

How the results depend on the processing

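Of the 27 called genes, 26 kept the call under every scaling, filter, tool and left-out library tried, and HJURP lost it without MPM-1 replicate 1 (-0.92). With an adjusted p under 0.05 and no fold threshold, 46 of the 53 genes were lower and 1 higher, beside 3740 and 3596 of all genes. DESeq2 called 28 of the 53 lower, the 27 and CENPBD1. Leaving out each library gave 26 to 29 lower among the 53, none higher, 935 to 1181 lower and 674 to 791 higher over all genes, and a median of the 53 between -1.12 and -0.99. With library size alone the median of all genes moved from -0.026 to -0.18 and that of the 53 to -1.25, and 26.8 percent of all calls were higher in place of 39.0 percent. On the FPKM scale, limma called 445 genes higher with a pseudocount of 0.1, 454 with 0.01, and 351 higher and 716 lower with 1. The median of the genes described here was -1.19 with 0.1, -1.20 with 0.01, -1.06 with 1 and -1.22 with 0.1 and no filter. At 0.1, 28.9 percent of calls were higher. The cause of these shifts was not tested. ZW10 changed sign to -0.13 with library size alone, -0.0056 without DMSO replicate 1 and -0.00091 without DMSO replicate 3 (-0.0056 to 0.076 over all left-out libraries), and on the FPKM scale to -0.15 with 0.1 (filtered or not), -0.14 with 1 and -0.15 with 0.01. Same-numbered libraries had correlations of deviations of 0.021, 0.114 and -0.074. These show no strong shared shift by replicate number, but cannot tell whether same-numbered libraries were handled together. With the replicate block, 27 of the 53 genes were lower and none higher, 1120 and 712 of all genes were lower and higher, and the median of the 53 was -1.10. Depth limits CENPBD1, which had the fewest reads.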

Other observations

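BUB3 was lower in FPKM relative to counts than any other of the 53 genes. Its log2 fold change in FPKM minus that in counts was -0.63, where the median over all genes was -0.15, and 90 genes (0.693 percent) had a lower value. CPM per FPKM for BUB3 was 2.71, 2.78 and 2.83 in DMSO and 4.19, 4.04 and 4.64 after MPM-1. The cause was not tested.

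BUB1 per BUB3 in FPKM was 0.444 ± 0.0314 (SD, n = 3) in DMSO and 0.201 ± 0.0139 after MPM-1. This pair was chosen after the values were seen. Its two-sided exact permutation p of 0.1 is the smallest that 3 against 3 libraries allow. The size of its shift depends on the unit. In counts the log2 fold changes were -1.77 for BUB1 and -0.16 for BUB3, and in FPKM they were -1.92 and -0.79. MPM-1 replicate 2 was the highest library of its treatment in 27 of the 53 genes, and DMSO replicate 1 the lowest of its treatment in 27.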
